A study of Mus musculus with 20 samples.

Results

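A set of 10 genes of neutrophils, the short-lived granulocytes that enter inflamed liver from the blood, were followed across 20 mouse livers. They were S100a8, S100a9, Csf3r, Retnlg, Il1b, Il1r2, Mmp8, Mmp9, Clec4d and Clec4e, taken by symbol from a table of 50559 genes, and all 10 were found. They had been proposed as a set with results of these livers already known, and which values led to the choice is not recorded. Their levels and fold changes are therefore given as a description, and no p-value is printed for them.

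S100a8 and S100a9 encode the calcium-binding subunits of calprotectin, which fills the neutrophil cytosol and acts as a danger signal when released. Csf3r encodes the receptor for G-CSF, the cytokine that drives neutrophil production, and Retnlg a resistin-like secreted protein of mature neutrophils. Il1b encodes the inflammatory cytokine interleukin-1 beta and Il1r2 a decoy receptor that binds it without signalling. Mmp8 and Mmp9 encode a collagenase and a gelatinase stored in neutrophil granules, and Clec4d and Clec4e encode partner C-type lectin receptors that sense microbial glycolipids and products of dead cells. Neutrophils are not the only source of these RNAs, since monocytes and macrophages express several of them too, Il1b, Csf3r, Clec4d and Clec4e among others.

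All 20 mice carried floxed Cideb alleles (Cideb fl/fl) with loxP sites around exon 2, on the C57BL/6 background in the study's account. An AAV carrying GFP or Cre under the TBG promoter, which is active in hepatocytes, was given at 6 weeks of age. AAV-TBG-GFP livers are called WT here although they carry the floxed alleles, and AAV-TBG-Cre livers are called KO, with the gene deleted in hepatocytes only and kept in blood cells. Mice then ate a Western diet (WD) or CDA-HFD, a high-fat diet without choline and with defined amino acids that models steatohepatitis, which gave 4 groups of 5 livers. The labels give 3 months for either diet and the study's text a longer time on WD than on CDA-HFD, so diet and time on diet cannot be told apart. The study's methods speak of several experiments, days and litters without tying a liver to any of them, so a day or litter could not enter the fits and the errors measure the spread between these livers.

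Values per liver are CPM, gene counts scaled to a common library size after TMM normalization over the 20 livers. Between 11697049 and 16827147 reads per liver fell on genes, and many of the values rest on fewer than 10 reads. Cideb, the gene deleted, was at 2.19 to 7.62 CPM in the 10 WT livers and at 0 to 0.397 CPM in the 10 KO livers, with no overlap on either diet. Its log2 fold change in KO against WT livers was -5.12 (SE 0.43, adjusted p = 0.000766 by edgeR) on WD and -4.19 (SE 0.46, adjusted p = 0.00268 by edgeR) on CDA-HFD. Exons of Cideb share 1136 bp with Nop9 on the opposite strand, and whether the counting used strand is not known, so the Cideb counts are uncertain there.

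The stretches just upstream of 4 members are shown: the paired genes S100a8 and S100a9, Mmp8 with motifs of both myeloid factors searched, and Clec4e, which lies beside Clec4d. S100a8 (chr3:90668978-90670035, plus strand) and S100a9 (chr3:90692632-90695721, minus strand) are separated by 22596 bp with no annotated gene between them. Clec4d (chr6:123262111-123275265, plus strand) and Clec4e (chr6:123281789-123289870, minus strand) are separated by 6523 bp, also with no gene between. Mmp8 lies at chr9:7558456-7568485 on the plus strand. Sequences are from RefSeq on GRCm38.p6, the build of mm10, written 5′ to 3′ on the gene's strand up to the RefSeq start (for S100a8, up to the earlier GENCODE start), at chr3:90668821-90668977 for S100a8, chr3:90695722-90695971 for S100a9, chr9:7558179-7558428 for Mmp8 and chr6:123289872-123290121 for Clec4e. Capitals mark matches, on either strand, to the motifs named after them.
S100a8: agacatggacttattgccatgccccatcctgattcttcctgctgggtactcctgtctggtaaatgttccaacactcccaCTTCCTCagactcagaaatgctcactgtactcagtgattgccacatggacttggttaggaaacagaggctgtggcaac
S100a9: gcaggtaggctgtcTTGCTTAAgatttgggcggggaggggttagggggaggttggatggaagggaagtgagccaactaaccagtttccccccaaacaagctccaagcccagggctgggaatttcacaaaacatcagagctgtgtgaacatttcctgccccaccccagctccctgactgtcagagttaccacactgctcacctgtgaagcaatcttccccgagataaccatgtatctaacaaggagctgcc
Mmp8: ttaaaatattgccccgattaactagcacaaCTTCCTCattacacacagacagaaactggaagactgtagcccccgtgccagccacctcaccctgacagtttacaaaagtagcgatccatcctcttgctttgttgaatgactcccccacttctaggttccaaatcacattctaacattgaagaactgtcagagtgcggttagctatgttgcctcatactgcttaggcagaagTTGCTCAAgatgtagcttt
Clec4e: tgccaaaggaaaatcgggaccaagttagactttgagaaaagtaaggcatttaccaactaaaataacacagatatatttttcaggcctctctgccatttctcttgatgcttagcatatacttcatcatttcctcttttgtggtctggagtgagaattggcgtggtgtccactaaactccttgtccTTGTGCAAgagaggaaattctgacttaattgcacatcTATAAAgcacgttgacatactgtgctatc

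A total of 5 motifs were searched on both strands in the 250 bases before the RefSeq start of 32851 mouse promoters, which held 9 of the 10 members (Mmp9 was not among them). The C/EBP motif TTGCNNAA, bound by factors that drive granulocyte maturation, was found in 4 of the 9 (S100a9, Mmp8, Retnlg and Clec4e) and in 9.56% of all promoters. The PU.1 motif GAGGAAG, bound by a master factor of myeloid cells, was found in 4 of the 9 (S100a8, Mmp8, Csf3r and Clec4d) and in 10.6% of all. Mmp8 held both, and in the run above its C/EBP match lies close to the gene start. TATAAA was found in S100a8, Il1b and Clec4e, 3 of the 9, and in 12.4% of all promoters, although in S100a8 it lies past the bases shown. The AP-1 motif TGANTCA (6.75% of all promoters) and a NF-kB motif of 10 letters (1.41%) were found in 0 of the 9. GGAA is shared by the PU.1 and NF-kB motifs, and a match is a run of letters, not a bound site.

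The data were first checked against the name of the set. All 10 genes had reads, yet at low levels, and their summed level was 12.2 to 46.4 CPM in WT livers on WD, 6.16 to 26.2 in KO livers on WD, 49.9 to 101 in WT livers on CDA-HFD and 14.7 to 33.9 in KO livers on CDA-HFD. The surface marker that defines mouse neutrophils, Ly6g, was close to 0, between 0 and 0.314 CPM in the 20 livers. Cxcr2, the chemokine receptor of blood neutrophils, was between 0.157 and 1.87 CPM, and both genes were chosen for this check after their values were seen. The 8 monocyte markers together summed to between 54.4 and 1395 CPM, which cannot be set against the level of a single gene. Lyz2, the most abundant of them, is also in the macrophage list used below. The genes are therefore described as neutrophil genes by what they are known for, since these livers do not show which cells held their RNA. In whole liver, fewer cells of a type and less RNA per cell cannot be told apart.

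The calprotectin genes S100a8 and S100a9 were lowest in KO livers and highest in WT livers on CDA-HFD. On CDA-HFD, S100a8 was at 11.3, 6.06, 4.80, 6.57 and 7.62 CPM in WT livers 1 to 5 and at 0.420, 0.505, 0.662, 1.55 and 1.70 CPM in KO livers 1 to 5. S100a9 was at 26.6, 8.18, 9.28, 8.25 and 10.05 CPM in WT livers and at 1.12, 1.01, 1.26, 2.13 and 3.57 CPM in KO livers. For both genes every KO liver lay below every WT liver. The fitted log2 fold change was -2.90 (SE 0.39) for S100a8, 7.46-fold lower in KO livers, and -2.76 (SE 0.45) for S100a9, 6.79-fold lower.

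On WD the same genes overlapped between WT and KO livers. S100a8 was at 7.997, 6.41, 1.14, 0.493 and 1.17 CPM in WT livers 1 to 5 and at 0.818, 0.786, 0.277, 0.231 and 4.65 CPM in KO livers 1 to 5. S100a9 was at 11.4, 5.30, 2.13, 0.887 and 3.67 CPM in WT livers and at 0.363, 0.786, 0.462, 0.769 and 6.07 CPM in KO livers. KO livers 1 to 4 lay below every WT liver for S100a9, while KO liver 5 lay above 4 of the 5 WT livers, and WT livers 1 and 2 carried most of the WT level. The log2 fold changes were -1.33 (SE 0.86) and -1.45 (SE 0.78), neither past the threshold, and without KO liver 5 they were -2.70 and -2.95.

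S100a8 and S100a9 proteins work as a pair, and the ratio of their RNA varied from liver to liver. Per kilobase of exon, S100a9 stood at 2.39 times S100a8 in WT livers on WD (median of 5 livers, range 1.10 to 4.15) and at 1.79 times (1.67 to 3.12) in WT livers on CDA-HFD. In KO livers the median was 1.74 (0.591 to 4.43) on WD and 2.66 (1.84 to 3.55) on CDA-HFD. The ranges of the 4 groups overlapped. Across the 20 livers the log2 CPM values of both genes had a Pearson r of 0.94 and a Spearman rho of 0.92, given as a description because the livers share groups and a common scaling.

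**Figure D1:**
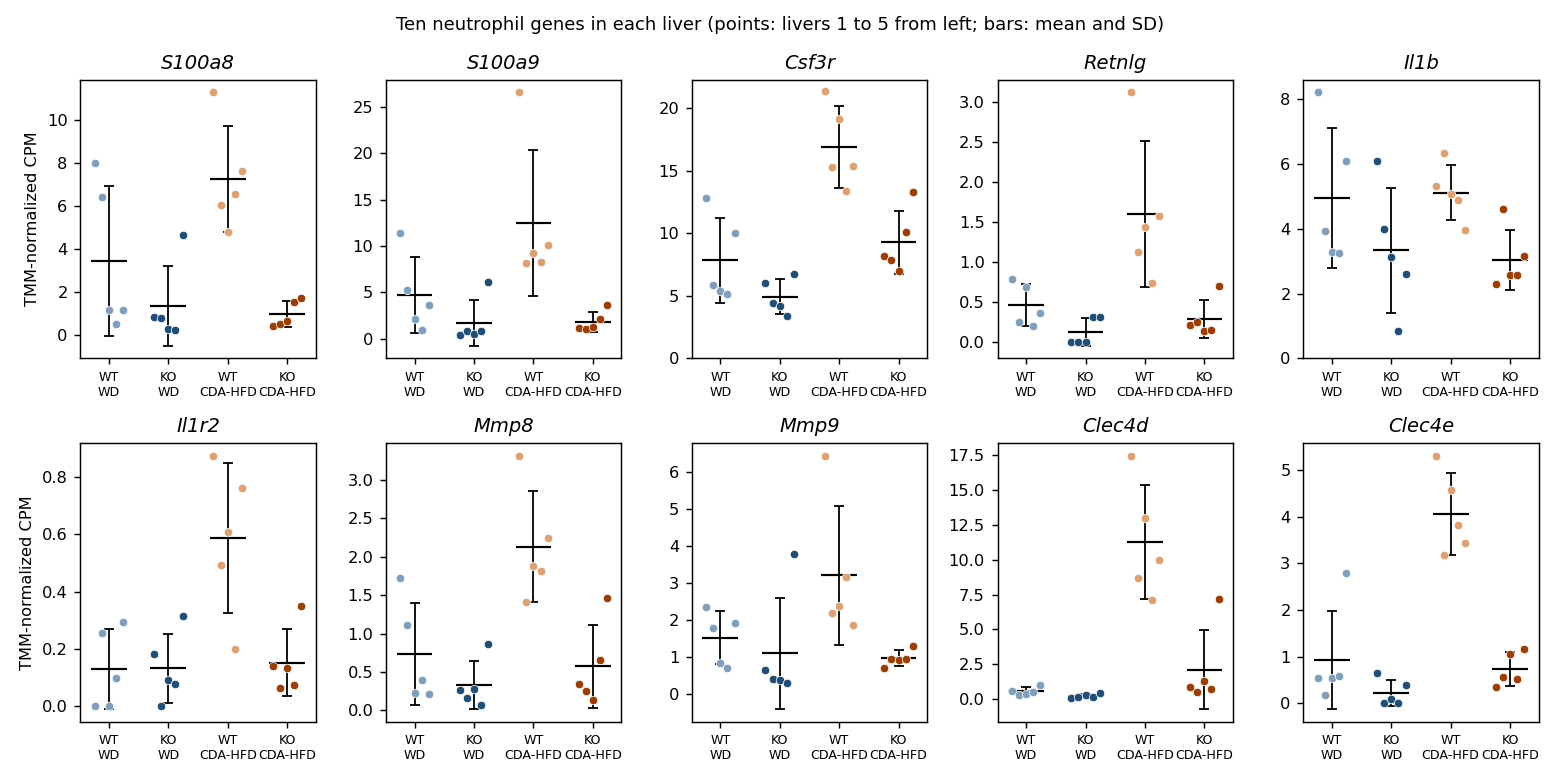
TMM-normalized CPM of the 10 neutrophil genes (y axis, linear, a different scale in each panel) in WT and KO livers on WD and CDA-HFD. Points are livers 1 to 5 from left to right within a group, the horizontal line is the mean and the bar the SD. WT livers on CDA-HFD hold the highest mean in all 10 panels, and KO liver 5 on WD stands high for S100a8, S100a9, Mmp8 and Mmp9.

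Csf3r, the G-CSF receptor gene, had 44 to 347 reads in each liver. On CDA-HFD it was at 21.4, 15.3, 19.2, 13.3 and 15.3 CPM in WT livers 1 to 5 and at 8.19, 7.82, 7.02, 10.1 and 13.3 CPM in KO livers 1 to 5. The groups did not overlap, although the lowest WT liver at 13.34 CPM and the highest KO liver at 13.30 CPM were nearly level. The log2 fold change was -0.86 (SE 0.19), 1.82-fold lower. On WD it was at 12.8, 5.90, 5.41, 5.13 and 10.1 CPM in WT livers and at 5.996, 4.399, 4.16, 3.39 and 6.78 CPM in KO livers, which overlapped, with a log2 fold change of -0.67 (SE 0.29) that did not pass. Csf3r was higher on CDA-HFD by 1.10 (SE 0.25) in WT and 0.92 (SE 0.24) in KO livers on the log2 scale, and in both the groups did not overlap.

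Il1b, the interleukin-1 beta gene, differed by less than the other members. On CDA-HFD it was at 5.31, 6.34, 5.08, 4.89 and 3.95 CPM in WT livers 1 to 5 and at 2.31, 4.61, 2.58, 2.58 and 3.16 CPM in KO livers (log2 fold change -0.74, SE 0.21). KO liver 2 lay above WT liver 5, so the groups overlapped. On WD it was at 8.23, 3.93, 3.28, 3.25 and 6.09 CPM in WT livers and at 6.09, 4.01, 3.14, 0.846 and 2.60 CPM in KO livers (log2 fold change -0.58, SE 0.42, not past the threshold). WT livers on WD and on CDA-HFD held about the same level, with a log2 fold change of 0.03 (SE 0.26) between diets. This diet value lay between -0.10 and 0.28 with single livers left out. Its exons share 25 bp with Il1bos on the opposite strand.

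Il1r2, the decoy receptor gene, was too sparse to be tested in any comparison under the count filter. With no filter it was called lower in KO livers on CDA-HFD and higher with diet in WT livers. It had 3 to 16 reads in each WT liver on CDA-HFD and 0 to 6 reads in each of the other 15 livers. On CDA-HFD it was at 0.875, 0.493, 0.607, 0.201 and 0.762 CPM in WT livers 1 to 5 and at 0.140, 0.0631, 0.132, 0.0736 and 0.352 CPM in KO livers. KO liver 5 lay above WT liver 4 and the groups overlapped.

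The granule proteinase genes Mmp8 and Mmp9 and the secreted Retnlg were lower in KO than in WT livers on CDA-HFD. Mmp8 was at 3.31, 1.41, 1.88, 1.81 and 2.24 CPM in WT livers 1 to 5 and at 0.350, 0.252, 0.132, 0.662 and 1.46 CPM in KO livers (log2 fold change -1.86, SE 0.50). KO liver 5 was just above WT liver 2, and the other 4 KO livers lay below every WT liver. Mmp9 was at 6.44, 2.19, 2.37, 3.15 and 1.86 CPM in WT livers and at 0.700, 0.946, 0.927, 0.957 and 1.29 CPM in KO livers, with no overlap and a log2 fold change of -1.72 (SE 0.36). Retnlg was at 3.12, 1.13, 1.44, 0.738 and 1.57 CPM in WT livers and at 0.210, 0.252, 0.132, 0.147 and 0.703 CPM in KO livers, again with no overlap, and its log2 fold change was -2.40 (SE 0.51). The highest KO liver, liver 5, was just under the lowest WT liver, liver 4.

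On WD these genes were sparse and none was tested. Mmp9 was at 2.35, 1.79, 0.838, 0.690 and 1.91 CPM in WT livers 1 to 5 and at 0.636, 0.393, 0.370, 0.308 and 3.78 CPM in KO livers, so that 4 KO livers lay below every WT liver and KO liver 5 above all of them. Mmp8 was at 0.220 to 1.72 CPM in WT livers and at 0.0769 to 0.867 CPM in KO livers, the highest again in KO liver 5. Retnlg had 0 reads in KO livers 1 to 3, 4 reads in each of KO livers 4 and 5, and 2 to 10 reads in WT livers.

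The lectin receptor genes Clec4d and Clec4e differed most with diet. Clec4d was at 0.627, 0.342, 0.381, 0.493 and 1.03 CPM in WT livers 1 to 5 on WD and at 17.4, 8.67, 12.98, 7.11 and 10.002 CPM in WT livers on CDA-HFD. The groups were far apart, with a log2 fold change of 4.25 (SE 0.34), 19.0-fold higher on CDA-HFD. KO livers on CDA-HFD held Clec4d at 0.910, 0.505, 1.32, 0.736 and 7.15 CPM, with livers 1 to 4 below every WT liver and liver 5 just above the lowest WT liver. The fit gave a log2 fold change of -2.36 (SE 0.63) in KO against WT livers, and of -3.69 without KO liver 5.

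Clec4e, which signals through the same adaptor, rose from 0.549, 0.171, 0.533, 0.592 and 2.79 CPM in WT livers on WD to 5.31, 3.17, 4.58, 3.82 and 3.43 CPM in WT livers on CDA-HFD, with no overlap (log2 fold change 2.08, SE 0.49). In KO livers on CDA-HFD it was at 0.350, 0.568, 1.06, 0.515 and 1.17 CPM, with all 5 below every WT liver (log2 fold change -2.44, SE 0.31). KO liver 5 thus lay within the range of WT livers for Clec4d and not for Clec4e, S100a8 or S100a9. On WD in KO livers Clec4d was at 0.0908 to 0.473 CPM and Clec4e at 0 to 0.636 CPM. Clec4d was not tested for diet in KO livers under the count filter, although all 5 KO livers on CDA-HFD lay above all 5 on WD.

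Per kilobase of exon, S100a9 had the highest mean level of the 10 members in all 4 groups, from 3.24 CPM per kb in KO livers on WD to 23.9 in WT livers on CDA-HFD. S100a8 was next in WT livers on CDA-HFD at 10.48 CPM per kb, followed by Clec4d at 7.03 and Csf3r at 4.68. In KO livers on CDA-HFD the order after S100a9 was Csf3r at 2.57, Il1b at 1.60, S100a8 at 1.39 and Clec4d at 1.33 CPM per kb. The ranges of mean and SD of these 4 overlapped with each other and with that of S100a9 (3.49, SD 2.06). All were measured in the same livers, so this overlap does not decide their order. S100a9 stood above S100a8 in every KO liver on CDA-HFD, at 1.84 to 3.55 times, and the order of the others was not tested. Il1r2 was lowest in both, at 0.308 and 0.0797 CPM per kb.

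**Figure D2:**
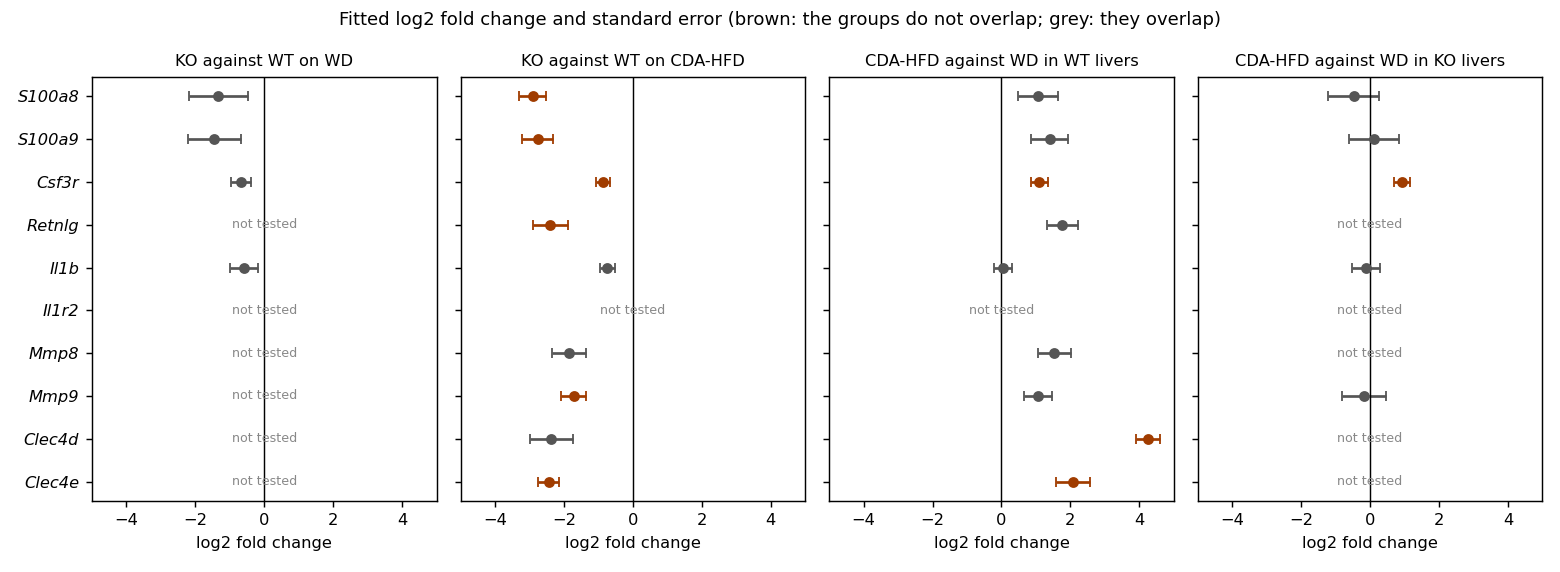
Log2 fold change (x axis) of each member (y axis) in the 4 comparisons of groups, from edgeR fits on 10 livers each, with bars of 1 SE. Brown marks members whose groups did not overlap in CPM and grey those that overlapped, and members removed by the count filter are marked as not tested. KO against WT on CDA-HFD has all 9 tested members left of 0, from -2.90 to -0.74.

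On CDA-HFD all 9 members tested were lower in KO livers past an adjusted p of 0.05 (edgeR's quasi-likelihood test with Benjamini-Hochberg adjustment over 17204 genes), where 7.29% of all genes tested were lower. The groups did not overlap for 6 of the 9 (S100a8, S100a9, Csf3r, Retnlg, Mmp9 and Clec4e), where 4.95% of all genes were lower without overlap. Since the members may have been chosen on this contrast, nothing is read from these counts. The median log2 fold change of the 9 was -2.36, beside 0.00499 over all genes tested, and Il1r2 was not tested.

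KO liver 5 on CDA-HFD stood apart from its group. On the first principal component of log2 CPM within CDA-HFD, which held 68.1% of the variance, it was at -29.7, among the WT livers at -48.5 to -5.30 and away from the other KO livers at 32.5 to 48.8. Its Cideb level was 0.0586 CPM, so the deletion check did not set it apart. It was the highest of its group for 9 of the 10 members, all but Il1b. Without it 9 members were past the threshold as before, the median fold change was -2.69, and 9 of the 10 did not overlap between the groups. Leaving out other livers took away more calls, and 3 members were left without KO liver 1, 5 without KO liver 3 and 5 without WT liver 3. S100a8, S100a9 and Clec4e stayed past the threshold in all 10 such fits, Retnlg and Mmp9 in 9, Csf3r in 6, Mmp8 and Clec4d in 3 and Il1b in 2.

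On WD none of the 4 members tested (S100a8, S100a9, Csf3r and Il1b) passed in edgeR or in DESeq2, and 1 had an unadjusted p under 0.05. Of all 15848 genes tested, 1702 had an unadjusted p under 0.05, and 0.0631% were lower in KO livers past the threshold. All 4 had a negative fold change, with a median of -1.001 that ran from -1.76 without KO liver 5 to -0.59 without WT liver 1. The groups overlapped for all 10 members, while 1.04% of all genes were lower without overlap, and without KO liver 5 they no longer overlapped for S100a9, Mmp9 and Clec4d.

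With diet in WT livers, 6 of the 9 members tested were higher on CDA-HFD past the threshold (S100a9, Csf3r, Retnlg, Mmp8, Clec4d and Clec4e), beside 25.9% of all genes, and 3 did not overlap (Csf3r, Clec4d and Clec4e), beside 19.2% of all genes. S100a8 was at a log2 fold change of 1.07 (SE 0.58) and Mmp9 at 1.05 (SE 0.41), neither past the threshold. These calls depended on the fit: DESeq2 called Mmp9 and not S100a9, the replicate block called S100a8 and Mmp9 as well, and 1 fit on all 20 livers did not call S100a9. S100a9 was at 1.40 (SE 0.54) and kept its call in 3 of the 10 fits with a liver left out, those without WT liver 1 on WD and without WT liver 2 or 4 on CDA-HFD. Retnlg (1.76, SE 0.45) and Mmp8 (1.53, SE 0.48) kept theirs in all 10.

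In KO livers fewer members were called with diet. Of 5 members tested only Csf3r passed, beside 9.19% of all genes higher, and its call was lost without KO liver 2 or 4 on WD. Clec4d was untested here and was called higher with no count filter and with all 20 livers in 1 fit. Csf3r and Clec4d did not overlap between the diets, beside 7.97% of all genes higher without overlap. S100a8 was at -0.48 (SE 0.74), S100a9 at 0.11 (SE 0.72), Il1b at -0.11 (SE 0.40) and Mmp9 at -0.19 (SE 0.64) on the log2 scale. KO liver 5 on WD decided 3 of these values: without it S100a8 was at 0.88, S100a9 at 1.60 and Mmp9 at 1.18, of which Mmp9 was called, and the median of the 5 members went from -0.11 to 1.06. Each group of livers enters 2 of these comparisons, so the comparisons are not independent of each other.

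Whether the effect of deletion differed between the diets was tested by the interaction of diet and vector over the 20 livers. All 9 members tested had a more negative value on CDA-HFD, from -1.56 (SE 1.02) for S100a8 and -1.31 (SE 0.96) for S100a9 to -0.15 (SE 0.50) for Il1b, with a median of -0.72. None passed in edgeR or DESeq2, none had an unadjusted p under 0.05, and 0.225% of 17804 genes passed with a lower value. Without KO liver 5 on CDA-HFD, Clec4d alone passed, in a fit that called 2138 genes in all, and the median was -1.39. Without KO liver 5 on WD the median was -0.029, S100a8 was at -0.20, and S100a9 (0.18), Mmp9 (0.12) and Mmp8 (0.043) were above 0. Without KO liver 1 on WD, Clec4e was at 0.44 and Il1b at 0.17. A different effect of deletion on WD and CDA-HFD was therefore not detected for the members with 5 livers in each group.

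Within a group 1 liver was often the highest for most members. WT liver 1 was the highest of its group for 7 of the 10 members on WD and for 9 on CDA-HFD, and KO liver 5 for 8 on WD and 9 on CDA-HFD. In KO liver 5 on WD the high members were joined by genes that neutrophils express while maturing in bone marrow: Ngp was at 7.57 CPM and at 0 to 0.707 in the other 4 livers of the group, Ltf at 5.20 and 0.182 to 0.786, Mpo at 4.41 and 0.0908 to 0.786. The same held in WT liver 1 on CDA-HFD, with Ngp at 21.9 and 2.40 to 3.86 in the others, Ltf at 17.1 and 1.06 to 2.68, and Mpo at 11.2 and 0.846 to 2.55 CPM. KO liver 5 on CDA-HFD was also the highest of its group for these genes, with Ngp at 3.46 CPM and 0.221 to 0.560 in the others, Ltf at 2.75 and 0.397 to 0.631, and Mpo at 0.527 and 0.0662 to 0.280. Its Ngp and Ltf overlapped with WT livers on that diet, while its Mpo was below all of them. Ngp and Ltf were among the 10 genes most like S100a9 with each group's mean subtracted. Their peaks in the same livers as S100a9 follow from that likeness and are no separate support.

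Markers of red cells and of monocytes were high in some of these livers and not in others. Red cell markers summed to 307 CPM in KO liver 5 on WD and 247 to 259 in the others of its group, and to 224 CPM in WT liver 1 on CDA-HFD and 67.2 to 120 in the others. In WT liver 1 on WD they summed to 204 CPM, within the 193 to 261 of the others. In KO liver 5 on CDA-HFD red cell markers summed to 101 CPM, the lowest of the group, while monocyte markers summed to 962 CPM and 166 to 218 in the others. In WT liver 1 monocyte markers were the highest of the group on both diets. They summed to 267 CPM on WD, with 62.9 to 154 in the others, and to 1395 CPM on CDA-HFD, with 649 to 1141. In KO liver 5 on WD they summed to 118 CPM, within the 54.4 to 128 of the others. The part of these blood and monocyte signals in the members' levels was not tested.

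**Figure D3:**
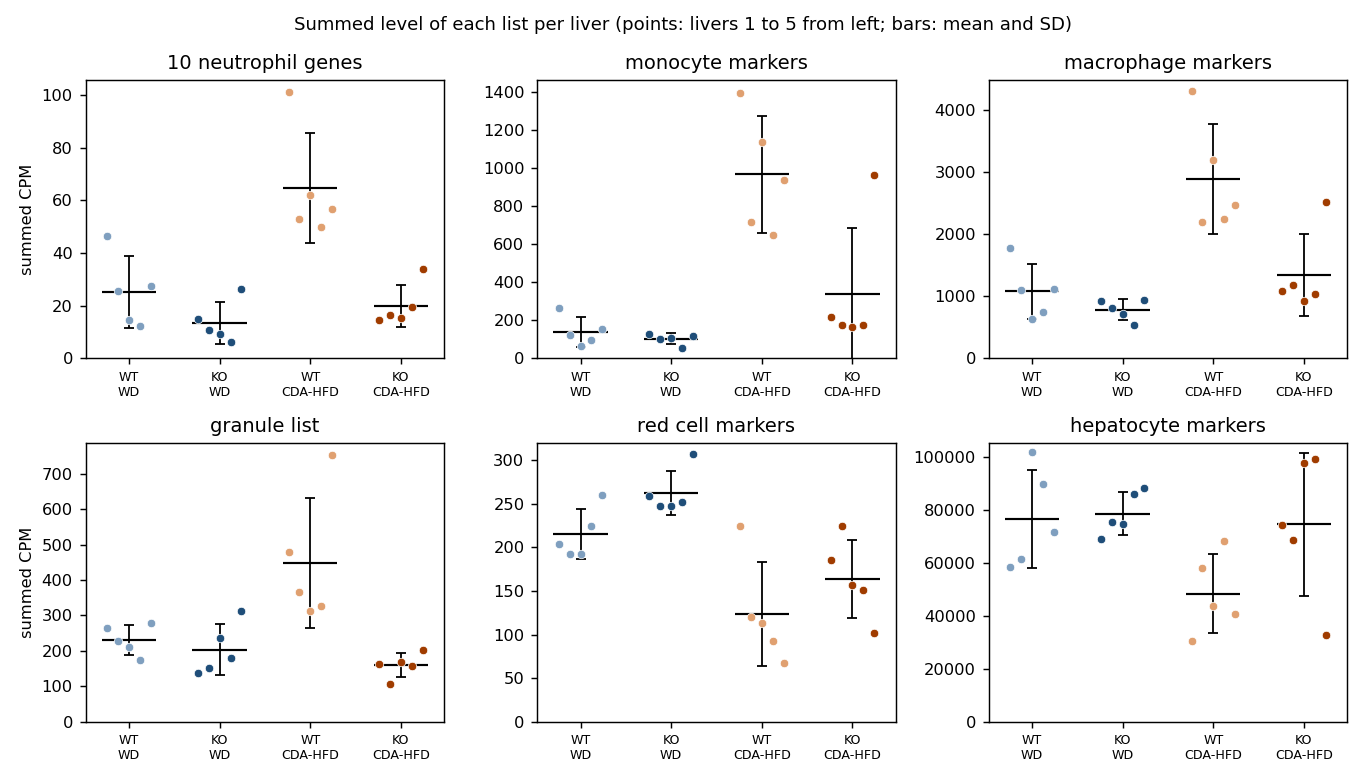
Summed CPM (y axis, linear from 0, a different scale in each panel) of the 10 neutrophil genes and of 5 other gene lists in each liver, by group. Points are livers 1 to 5 from left to right, with the mean as a line and the SD as a bar. KO liver 5 on CDA-HFD sits with WT livers for monocyte and macrophage markers, at 962 and 2516 CPM, and below them for the 10 neutrophil genes, at 33.9 CPM.

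Monocyte and macrophage markers also differed between these groups. All 8 monocyte markers were higher on CDA-HFD than on WD in WT livers, beside 25.9% of all genes. In KO against WT livers on CDA-HFD 4 of 8 were lower, beside 7.29% of all genes. Among these 4 was Ly6c2 (log2 fold change -1.27, SE 0.35, adjusted p = 0.0363 by edgeR). The 8 markers summed to 649 to 1395 CPM in WT and 166 to 962 CPM in KO livers on CDA-HFD. Of 15 macrophage markers 5 were lower in KO livers on CDA-HFD, among them Adgre1, again beside 7.29% of all genes. The 15 summed to 2205 to 4305 CPM in WT and 920 to 2516 CPM in KO livers, while Clec4f of resident Kupffer cells was at 0.34 (SE 0.40, adjusted p = 0.569 by edgeR). With diet in WT livers 8 of the 15 were higher and 2 lower, beside 25.9% and 25.2% of all genes, and 6 had a negative fold change. The Ly6c2 call was lost in 9 of 16 alternatives (adjusted p up to 0.0893) and that of Adgre1 in 6 of 17 (up to 0.0724). Of the 6 red cell markers tested on CDA-HFD, 1 was higher in KO livers, Alas2 of haem synthesis at 0.96, and 0 were lower, beside 8.19% and 7.29% of all genes. The part of fewer monocytes or macrophages in the lower member levels was not tested.

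Other neutrophil genes were then read from 4 lists compiled by hand, for granule proteins, receptors, effector enzymes and attractants, none of which holds a member. Lists and members were drawn up with results of these livers known, so their counts are not independent support. In KO against WT livers on CDA-HFD, 33 of the 56 genes tested were lower and 1 was higher past the threshold, beside 7.29% and 8.19% of all genes. Between 9 and 17 were lower when WT liver 1, 3 or 5 or any of KO livers 1 to 4 was left out, and 45 without KO liver 5. In the same fits the number of all genes called fell from 2664 to between 709 and 1581, and was 7201 without KO liver 5.

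Among granule proteins, 5 of 13 were lower and 1 was higher, with a median log2 fold change of -1.87. Lcn2, an iron-sequestering protein also made by stressed hepatocytes, was at 171 to 607 CPM in WT and 36.7 to 89.9 CPM in KO livers (log2 fold change -2.26, SE 0.39, adjusted p = 0.0105). Mpo, the myeloperoxidase of primary granules, was at 0.846 to 11.2 CPM in WT and 0.0662 to 0.527 CPM in KO livers (-3.75, SE 0.87, adjusted p = 0.0214). Chil3 was at -2.23 (SE 0.55, adjusted p = 0.0263), and Camp and Mcemp1, named after their values were seen, at -2.90 and -1.65. Cebpe, the factor for late granulocyte maturation, went the other way at 1.00 (SE 0.21, adjusted p = 0.0157), from 2.82 to 4.49 CPM in WT livers to 4.63 to 9.14 CPM in KO livers.

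Receptors and effector enzymes of phagocytes were lower for 12 of 18 and 10 of 17 genes, and none was higher. C5ar1, the receptor for the complement fragment C5a that guides neutrophils, was at 15.4 to 25.3 CPM in WT and 4.16 to 12.8 CPM in KO livers (log2 fold change -1.65, SE 0.29, adjusted p = 0.0120). Ptafr, the receptor for platelet-activating factor, was at -1.63 (SE 0.37, adjusted p = 0.0201) and Cd14, the endotoxin co-receptor, at -1.43 (SE 0.31, adjusted p = 0.0178). Il1rn, the interleukin-1 receptor antagonist, was at -1.18 (SE 0.20, adjusted p = 0.0100) and Alox5ap, needed to make leukotrienes, at -1.62 (SE 0.38, adjusted p = 0.0216). Most of these genes are also used by monocytes and macrophages.

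The attractant list, which also holds cytokines such as Tnf, Il1a and Csf1, was lower as well, for 6 of 8 genes, and none was higher. Cxcl5, an epithelial chemokine for neutrophils, was at 2.94, 3.10, 3.70, 2.28 and 2.81 CPM in WT livers 1 to 5 and at 0.0700, 0.0631, 0.397, 0.294 and 0.234 CPM in KO livers (log2 fold change -3.77, SE 0.36, adjusted p = 0.00157). On WD it was at 0.0854 to 0.784 CPM in WT and 0.0788 to 0.636 CPM in KO livers. It was the only gene of the 4 lists to pass the interaction of diet and vector (-4.01, adjusted p = 0.0176 by edgeR). DESeq2 did not make this call, and it was lost with the replicate block and without KO liver 1 on WD. The stricter count filter removed Cxcl5, so it was not tested there. Ccl3 (-1.63, adjusted p = 0.0139), Tnf (-1.18, adjusted p = 0.0233) and Il1a (-0.85, adjusted p = 0.0147) were lower too, and Ccl4 and Cxcl2 were the other two. Csf1, the macrophage growth factor, was at -0.43 (SE 0.14, adjusted p = 0.0580) and Cxcl1 at -0.54 (SE 0.27, adjusted p = 0.172), neither past the threshold.

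**Figure D4:**
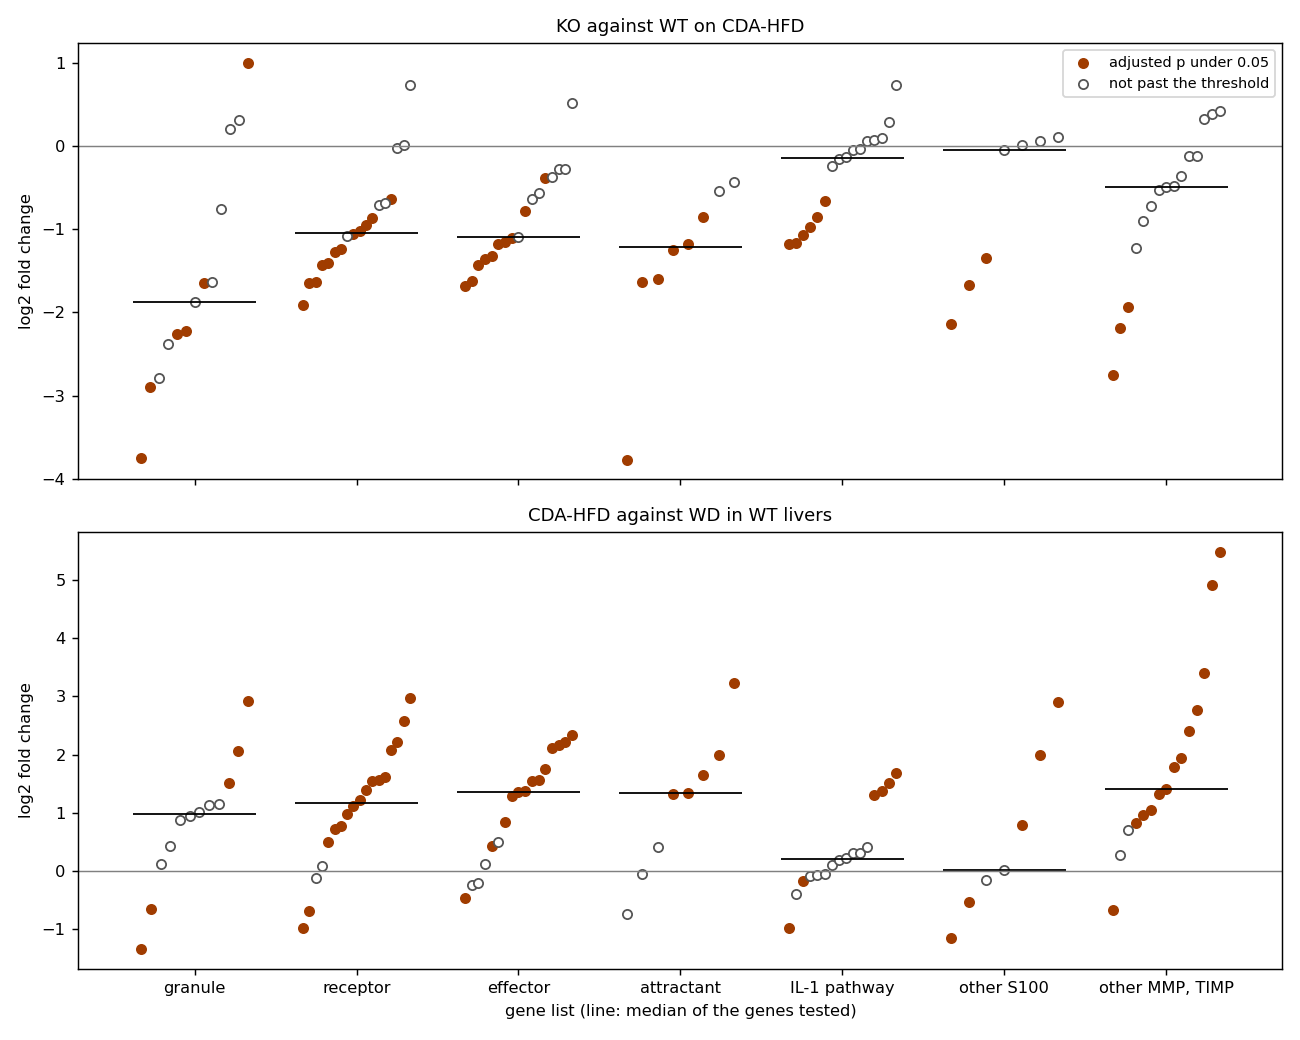
Log2 fold change (y axis) of each tested gene in 7 gene lists (x axis), for KO against WT livers on CDA-HFD (top) and for CDA-HFD against WD in WT livers (bottom). Filled points passed an adjusted p of 0.05 by edgeR, open points did not, and the line is the median of the genes tested. In the upper panel the attractant Cxcl5 lies lowest at -3.77 and the granule factor Cebpe highest at 1.00.

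The relatives of the members were less uniform. Among the other S100 genes 3 of 7 were lower in KO livers on CDA-HFD, with a median of -0.05: S100a11 (-1.34, SE 0.23, adjusted p = 0.0112), S100a4 (-2.13, SE 0.47, adjusted p = 0.0187) and S100a6 (-1.66, SE 0.39, adjusted p = 0.0224). S100a4 shares exon sequence with Gm42674, so its counts are uncertain. Among the other metalloproteinases and their inhibitors 3 of 15 were lower, with a median of -0.49: Mmp13 (-1.94, SE 0.23, adjusted p = 0.00322), Timp1 (-2.19, SE 0.42, adjusted p = 0.0136) and the macrophage elastase Mmp12 (-2.75, SE 0.63, adjusted p = 0.0208). Mmp12 was at 292 to 561 CPM in WT livers and at 17.7 to 191 CPM in KO livers, with the highest KO value in liver 5. Of the interleukin-1 pathway 6 of 16 were lower, with a median of -0.14, among them the inflammasome adaptor Pycard (-1.07, SE 0.22, adjusted p = 0.0160) and Casp4 (-1.17, SE 0.28, adjusted p = 0.0230). Of these 3 lists 12 genes were lower in all, 6 without KO liver 1 or 3, 7 without WT liver 3 and 19 without KO liver 5. Over all genes tested with every liver kept, 7.29% were lower.

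On WD 0 of the 41 genes tested from the 4 neutrophil lists passed in edgeR, and 36 had a negative fold change. In the same fit 15 of the 41 had an unadjusted p under 0.05, beside 1702 of all 15848 genes. DESeq2 called 1 of the 41 lower, Alox5ap. In WT livers 34 of 55 were higher on CDA-HFD than on WD and 5 were lower, beside 25.9% and 25.2% of all genes. Higher genes included Ptafr (log2 fold change 2.97, SE 0.30, adjusted p = 2.66e-05), Anxa1 (2.93, SE 0.27, adjusted p = 1.75e-05), Lcn2 (2.06, SE 0.45, adjusted p = 0.00249) and Cxcl5 (3.23, SE 0.40, adjusted p = 7.34e-05), while Mpo (0.43, SE 0.92) and Chil3 (1.14, SE 0.63) did not pass. Wfdc21, 1 of the 2 most abundant genes of the granule list, was among the lower ones. In WT livers it was at 112 to 161 CPM on WD and 18.8 to 78.8 CPM on CDA-HFD. In KO livers 15 of 41 were higher and 1 was lower, again Wfdc21, beside 9.19% and 7.85% of all genes.

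Over the 20 livers the RNA most like S100a9 in log2 CPM, among 17795 genes that are no members, was Kcnk6, a potassium channel gene (Pearson r = 0.93), then the ABC transporter gene Abca13 (0.92) and Chil3 (0.91). Igsf6, Clec4a3, Gm46162, Crnkl1, Ammecr1, Rap1b and Agpat5 completed the 10 highest, and 5 of the 10 were kept by Spearman's rho. Kcnk6 was at 9.40 CPM on average in WT and 8.37 in KO livers on WD, and at 14.03 and 9.10 CPM on CDA-HFD. With each group's mean subtracted the order changed to Abca13 (0.95), Ltf (0.92), Kcnk6 (0.91), Cd177 (0.89), Ngp (0.89) and Prtn3 (0.88), of which Ltf, Cd177, Ngp and Prtn3 encode neutrophil granule or surface proteins. BE692007, Cyfip2, Adamtsl3 and Marchf1 completed these 10. The livers share groups and a common scaling, so the values are a description.

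The members split by the same measure. With group means subtracted, S100a8 (r = 0.88), Mmp9 (0.86), Mmp8 (0.75), Csf3r (0.70) and Retnlg (0.67) varied with S100a9 from liver to liver, Clec4d (0.52) and Il1r2 (0.35) less so, and Clec4e (0.15) and Il1b (0.10) hardly. With groups left in, the values were 0.94 for S100a8, 0.93 for Mmp9, 0.70 for Clec4e and 0.45 for Il1b. These values describe 20 livers and were not tested.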

How the data were processed

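RNA-seq was run on 20 mouse livers, 5 for each vector and diet. The authors deposited raw read counts per gene symbol, with mm10 in the submitters' processing notes. The aligner, the counting program and the use of strand are not given in the sources used here. The labels name a directional NEBNext kit and the paper a Nugen kit. Entries for unassigned reads (20.7% to 28.8% without a feature, 18.0% to 28.7% aligned to several places, 0.800% to 1.03% ambiguous) were left out. Deposited counts were filtered with filterByExpr, scaled by TMM and fitted with edgeR 4.0.16 (quasi-likelihood F test, Benjamini-Hochberg, threshold 0.05) in R 4.3.3, on the 10 livers of each comparison or on 20 for the interaction. For correlations, log2 CPM took a prior count of 2. Fits were tested on simulated data. Figures used Python 3.11.15 and matplotlib 3.10.9. Positions and overlaps came from GENCODE on GRCm38.

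The members, lists and tests were chosen with earlier results of these data known. The text names every member, Cideb and the 10 genes most like S100a9 in each way. Other genes were drawn from a longer choice, and not all of that choice is named. It held, per list and comparison, up to 4 genes with the smallest adjusted p past the threshold and the 2 most abundant. It also held the first tested and most abundant gene of each marker list. Some genes outside the choice are named too, and not each is marked as such. Replicate numbers do not pair livers: residuals of same-numbered livers correlated between -0.485 and 0.445. In 40 pairs of livers of 1 group the chi-square per gene was 6.24 to 110, so none was a copy. Alternatives were DESeq2 1.42.0, RLE factors, library size only, other filters, a replicate block, all 20 livers in 1 fit and each liver left out.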

Additional observations from a re-analysis of the deposited data

Results flagged for a closer look

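Each group of 5 livers was searched for a highest or lowest liver whose gap to the nearest other exceeded 0.71 of the group's range (Dixon's 95% critical value). Of 156 groups examined 34 were past it. A rate of 5% would give about 7.8 for independent and normally spread values. The values examined are of related genes named in the text and of sums that hold some of them, many at low counts. The 34 are therefore not read as an excess.

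In KO livers on WD, liver 5 was the high liver for S100a9 (gap over range 0.926), Mmp9 (0.906), S100a8 (0.867) and Mmp8 (0.746) among the members. It was also high for Chil3 (0.930), Abca13 (0.847), Mpo (0.839), Lcn2 (0.741) and the summed red cell markers (0.809). Liver 1 of this group was high for Mmp12 (0.833) and Mmp13 (0.780), and not for the members.

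In WT livers on CDA-HFD, liver 1 was high for S100a9 (0.898), Mmp9 (0.717) and the sum of the 10 members (0.760), and for Abca13 (0.925) and Mpo (0.835). Liver 5 was high for Lcn2 (0.828) and Timp1 (0.715). In WT livers on WD, liver 5 was high for Clec4e (0.839).

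In KO livers on CDA-HFD, liver 5 was high for Clec4d (0.877), Retnlg (0.790), Il1r2 (0.733) and the sum of the members (0.753). It was also high for monocyte markers (0.935) and macrophage markers (0.840) in sum, for Ptafr (0.955), Anxa1 (0.932), Itgam (0.928), S100a4 (0.898), Mmp12 (0.886) and C5ar1 (0.810), and for Timp1 (0.774), Alox5ap (0.773) and Cd14 (0.745). For the other 7 members the gap in this liver did not pass.

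The change of Cxcl5 with deletion differed between the diets, with an interaction of -4.01 on the log2 scale (SE 0.75, adjusted p = 0.0176 by edgeR). All 5 KO livers on CDA-HFD were below all 5 WT livers, whereas the groups overlapped on WD.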

How the results depend on the processing

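Under RLE factors, library size only, DESeq2, other filters, the replicate block and 1 fit on all 20 livers the members' medians kept their direction, except with diet in KO livers (-0.11), where the median was 0.12 with library size only, 0.42 with at least 10 counts in every liver and 0.29 with the replicate block. No called value changed sign. In KO against WT livers on CDA-HFD, Il1b lost its call with no filter and with all 20 livers in 1 fit. Clec4d lost its call there with library size only. With at least 10 counts in every liver, which removed the sparse members, 4 were lower in KO livers on CDA-HFD (median -1.30) and 1 was higher with diet in WT livers (median 0.60). With diet in KO livers 2 were higher without a filter and 2 with all 20 livers in 1 fit. On WD, DESeq2 called 1 gene of the other neutrophil lists lower. For the interaction, 0 genes of those lists passed in DESeq2, with at least 10 counts or with the replicate block. Cxcl5 was removed by the filter of at least 10 counts, and its call was lost in DESeq2 and with the replicate block. Its adjusted p was up to 0.0613 over the edgeR alternatives that tested it. Library size only moved the median log2 fold change of all genes to -0.19 in KO against WT livers on CDA-HFD (517 higher and 1192 lower in place of 1409 and 1255), to 0.42 with diet in WT livers (9120 and 1570 in place of 4335 and 4207), to 0.25 with diet in KO livers (3371 and 553 in place of 1506 and 1286) and to -0.15 for the interaction (18 and 26 in place of 59 and 40). By Spearman's rho 5 of the 10 genes most like S100a9 were kept. The cause of these changes was not tested beyond the smaller number of genes under the stricter filter.

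Replicate numbers did not pair the livers. With the replicate block, 9 members and 35 other neutrophil genes were lower in KO livers on CDA-HFD, 8 and 37 were higher with diet in WT livers, 1 and 16 with diet in KO livers, and 0 and 0 were lower on WD.

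With each liver left out in turn, 0 members and 0 other genes passed on WD (medians -1.76 to -0.59). In KO livers on CDA-HFD 3 (without KO liver 1) to 9 members and 9 (without KO liver 1 or 3) to 45 (without KO liver 5) other genes were lower (medians -2.69 to -2.01). With diet in WT livers 5 to 8 members and 31 to 39 others were higher (medians 1.00 to 1.92), and in KO livers 0 (without KO liver 2 or 4 on WD) to 2 (without KO liver 5 on WD) members and 6 to 17 others (medians -0.37 to 1.06). For the interaction 0 to 1 members and 0 (without KO liver 1 on WD) to 7 (without KO liver 5 on CDA-HFD) others passed (medians -1.39 to -0.029), and 6 to 10 of the genes most like S100a9 were kept. Among named genes outside the members taken singly, 243 values lost their call with a liver left out and 26 under the other alternatives. Counts without a change were 1451 and 1020, and these include values of the members. Members were judged by whether the fold change stayed within the pooled SD of the livers, not by their call. By that rule 12 member values moved with a liver left out and 0 under the other alternatives.

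With 5 livers a group and under 10 reads for several members on WD, differences there were not detectable below large folds, and intervals cover the spread between livers only.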

Other observations

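Markers of other cells were read in the same fits. On CDA-HFD all 8 hepatocyte genes were higher in KO than in WT livers by fold change (median 0.61), none past the threshold in edgeR. Of the 8, 3 had an unadjusted p under 0.05, beside 6076 of all 17204 genes tested. They summed to 30532 to 68348 CPM in WT livers and 32661 to 99123 CPM in KO livers, where liver 5 held the lowest value. With diet in WT livers 5 of 8 hepatocyte genes were lower on CDA-HFD (median -0.72), beside 25.2% of all genes. None of 8 lymphocyte markers passed in KO against WT livers on CDA-HFD (1 with an unadjusted p under 0.05). With diet in WT livers 3 of 7 were higher, beside 25.9% of all genes. Of platelet markers 1 of 2 tested was lower in KO livers on CDA-HFD, beside 7.29% of all genes. The 1 eosinophil or basophil marker tested was at -1.39, not past the threshold.

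Metalloproteinases other than Mmp8 and Mmp9 changed with diet in both vectors. On CDA-HFD 12 of 15 metalloproteinases and inhibitors were higher and 1 was lower in WT livers (median 1.41), beside 25.9% and 25.2% of all genes. In KO livers 9 of 15 were higher and 1 was lower (median 1.01), beside 9.19% and 7.85% of all genes. Mmp7, Mmp12 and Mmp2 rose most in WT livers among those named, by 5.48, 4.92 and 3.39 on the log2 scale.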
